A study of Mus musculus with 2 samples.

Results

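Tight junction genes were compared between fetal livers with and without a conditional deletion of Prox1. The 33 genes were chosen by name: claudins, proteins of the occludin family, junction adhesion molecules, and scaffold and polarity genes. All 33 had at least 1 probe set that the array's annotation assigns to that gene alone, 69 probe sets together, out of 18193 genes with such a probe set. RNA came from whole liver of E14.5 mouse embryos labelled NMRI/C57Bl6, with 1 array for a conditional knockout sample (Prox1 f/f;Foxa3Cre) and 1 array for a wild-type sample. In the knockout, Foxa3, a gene of gut and liver endoderm, drives the Cre that recombines floxed Prox1, so the deletion is directed to the epithelium of the organ and not to its mesenchyme, endothelium or blood. The labels give neither the number of embryos behind each RNA nor whether the wild-type embryos carried a floxed allele or the Cre. With no replicates, no test between genotypes was possible: every value is from 1 array, and every difference is between these 2 samples.

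Tight junctions seal the space between neighbouring epithelial or endothelial cells near their apical side. Claudins are the membrane proteins that form the strands, and their mix sets whether a junction is a barrier or lets certain ions and water pass. Occludin and tricellulin stabilise the strands and the corners where cells meet. Scaffold proteins such as ZO-1 tie claudins to actin, and the Par and Crumbs polarity complexes place the junction at the apical border. In liver, tight junctions close off bile canaliculi between hepatocytes and line the bile ducts, keeping bile from blood.

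Values are MAS5 signals, a linear summary of each probe set, and their 2% trimmed mean was 500.0 on either array. A signal was taken as measured above a floor of 112.6, the higher of the median signals of the arrays, which were 112.6 in the knockout and 101.1 in wild type. Where a gene was below the floor in 1 genotype, the floor stood in for that value and the fold is a lower bound. Each gene was read on its brightest probe set, and genes were counted at a 2-fold difference. Prox1 itself read 222 in the knockout and 340.3 in wild type on its brightest probe set, a log2 difference of -0.62. Its further probe sets were below the floor in the knockout, at 111.8 and 66.7, against 205.9 and 175.4 in wild type. Their log2 bounds were -0.87 and -0.64. The labels do not say which part of Prox1 is removed, so these values do not check the genotype labels. Of 6 measured hepatocyte markers, Alb, Afp and Ttr ran between 33186 and 35212 in the knockout and between 32396 and 36369 in wild type. The others read lower in the knockout. Apoa1 read 25348 against 32222 in wild type, Fgb 3936 against 11575 and Ahsg 788 against 10437. The X-inactivation RNA Xist read 366 in the knockout and 11467 in wild type, and the Y-linked gene Eif2s3y read 1972 in the knockout and 0.87 in wild type, so sex-linked genes separated the arrays as well.

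The sequences just upstream of the 5 genes that differed by at least 2-fold are shown first, since they include both the claudins that read higher and those that read lower. They are 250 bases ending at the annotated transcription start in RefSeq (GRCm38.p6), 5′ to 3′ on the gene's strand. Capitals mark letters found on either strand. GGGCGG is the GC box bound by Sp1, CACCTG is an E-box bound by Snai and Zeb repressors, and AACCNGTT is the core of Grainyhead sites. The letters TATAAA, known as the TATA box, were added after the sequences had been seen. Cldn7 has a pair of annotated starts, both shown. Marveld2 has a pair whose windows overlap, and the first is shown.
Cldn2, chrX:139800558-139800807, plus strand: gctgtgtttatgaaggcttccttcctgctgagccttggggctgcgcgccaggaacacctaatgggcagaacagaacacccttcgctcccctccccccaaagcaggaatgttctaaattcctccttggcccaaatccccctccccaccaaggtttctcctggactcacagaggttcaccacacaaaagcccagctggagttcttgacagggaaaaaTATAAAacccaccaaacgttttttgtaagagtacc
Cldn6, chr17:23679115-23679364, plus strand: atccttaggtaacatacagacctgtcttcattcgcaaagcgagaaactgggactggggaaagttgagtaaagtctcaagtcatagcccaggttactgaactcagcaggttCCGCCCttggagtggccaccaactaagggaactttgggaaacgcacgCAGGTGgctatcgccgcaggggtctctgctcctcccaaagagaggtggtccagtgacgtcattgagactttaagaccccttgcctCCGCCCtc
Cldn7, first start, chr11:69964529-69964778, plus strand: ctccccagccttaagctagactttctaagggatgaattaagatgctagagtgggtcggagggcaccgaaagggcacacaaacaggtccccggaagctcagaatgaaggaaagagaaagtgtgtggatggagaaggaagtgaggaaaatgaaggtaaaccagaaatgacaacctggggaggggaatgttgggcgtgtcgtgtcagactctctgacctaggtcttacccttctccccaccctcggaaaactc
Cldn7, second start, chr11:69965171-69965420, plus strand: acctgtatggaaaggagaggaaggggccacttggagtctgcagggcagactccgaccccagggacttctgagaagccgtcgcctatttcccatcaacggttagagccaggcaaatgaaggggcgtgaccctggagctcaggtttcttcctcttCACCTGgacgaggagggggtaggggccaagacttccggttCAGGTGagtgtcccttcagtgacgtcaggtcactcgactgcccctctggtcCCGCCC
Cldn1, chr16:26371840-26372089, minus strand: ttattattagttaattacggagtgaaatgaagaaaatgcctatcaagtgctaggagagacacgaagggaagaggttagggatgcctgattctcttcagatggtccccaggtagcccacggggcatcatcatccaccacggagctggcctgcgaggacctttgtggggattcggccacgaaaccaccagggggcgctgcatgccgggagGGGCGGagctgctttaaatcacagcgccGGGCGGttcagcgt
Marveld2, first start, chr13:100616972-100617221, minus strand: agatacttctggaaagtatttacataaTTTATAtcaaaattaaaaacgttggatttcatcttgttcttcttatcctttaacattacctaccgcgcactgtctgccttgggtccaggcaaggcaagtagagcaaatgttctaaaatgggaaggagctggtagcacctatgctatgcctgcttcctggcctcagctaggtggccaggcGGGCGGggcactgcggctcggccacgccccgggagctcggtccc

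These upstream sequences differed within each group of genes. Cldn2 held a TATA box at -35 to -30 and no GC box, whereas Cldn6 held GC boxes at -140 to -135 and -8 to -3 and an E-box at -93 to -88. The first start of Cldn7 held none of the motifs, and its second start held E-boxes at -97 to -92 and -57 to -52 and a GC box at -6 to -1. Among the genes that read lower, Cldn1 held GC boxes at -42 to -37 and -14 to -9, and Marveld2 held a GC box at -44 to -39 and TATA letters far upstream at -223 to -218 of its first start. Counted from the second start of Marveld2, the GC box lies at -71 to -66. A promoter was listed for 26 of the 33 genes. The E-box was found in 11 of the 26 (42.3%), against 19.4% of 27025 genes in the table, and in 9 of the 21 that were also measured (42.9%), against 17.9% of 9318 such genes. The GC box was found in 21 (80.8%), against 35.4% of the genes in the table, and in 18 of the 21 measured (85.7%), against 63.3% of the measured genes. AACCNGTT was found in Cldn5 and Cgn (7.69%), against 2.0%. Both were measured, which makes 9.52% of 21, against 1.92% of the measured genes. The TATA box was found in 3 genes (11.5%), against 14.3%. Those 3 were all measured, which makes 14.3% of 21, against 8.21% of the measured genes. The palindrome AACCGGTT, which is contained in AACCNGTT, was found in 0 of the 26, against 0.137%, and so in 0 of the 21 measured, against 0.258%. A gene counted if any of its listed starts held the letters. The 26 junction genes had 39 listed starts and the 27025 genes of the table had 32851. A match is a description of the letters, and the table's genes are not matched to the junction genes in base composition or in starts per gene.

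Of the 33 genes, 23 were measured on at least 1 array and 10 lay below the floor on both. Among the measured genes, 3 were at least 2-fold higher in the knockout, beside 3.27% of all 11433 measured genes, and 2 were at least 2-fold lower, beside 2.13%. The higher genes were the claudins Cldn2, Cldn6 and Cldn7, and the lower ones were Cldn1 and Marveld2. The remaining 18 lay between. All of the higher genes were below the floor in wild type, so they entered the count only through the knockout array. Among the 17 junction genes measured on both arrays, 0 were 2-fold higher, beside 2.61% of 10216 such genes, and 2 were 2-fold lower, beside 1.85%. The median log2 difference of the 23 genes was 0.33, beside 0.03 over all measured genes, and it was 0.17 over the 17 genes measured on both arrays, beside 0.01. With the floor raised to the 60th percentile, the median of the measured junction genes was 0.14. The medians over all genes were not matched to the junction genes in signal. Of the 17 junction genes measured on both arrays, 9 read above 0 and 8 below 0, beside 52.1% above 0 among all genes so measured.

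**Figure D1:**
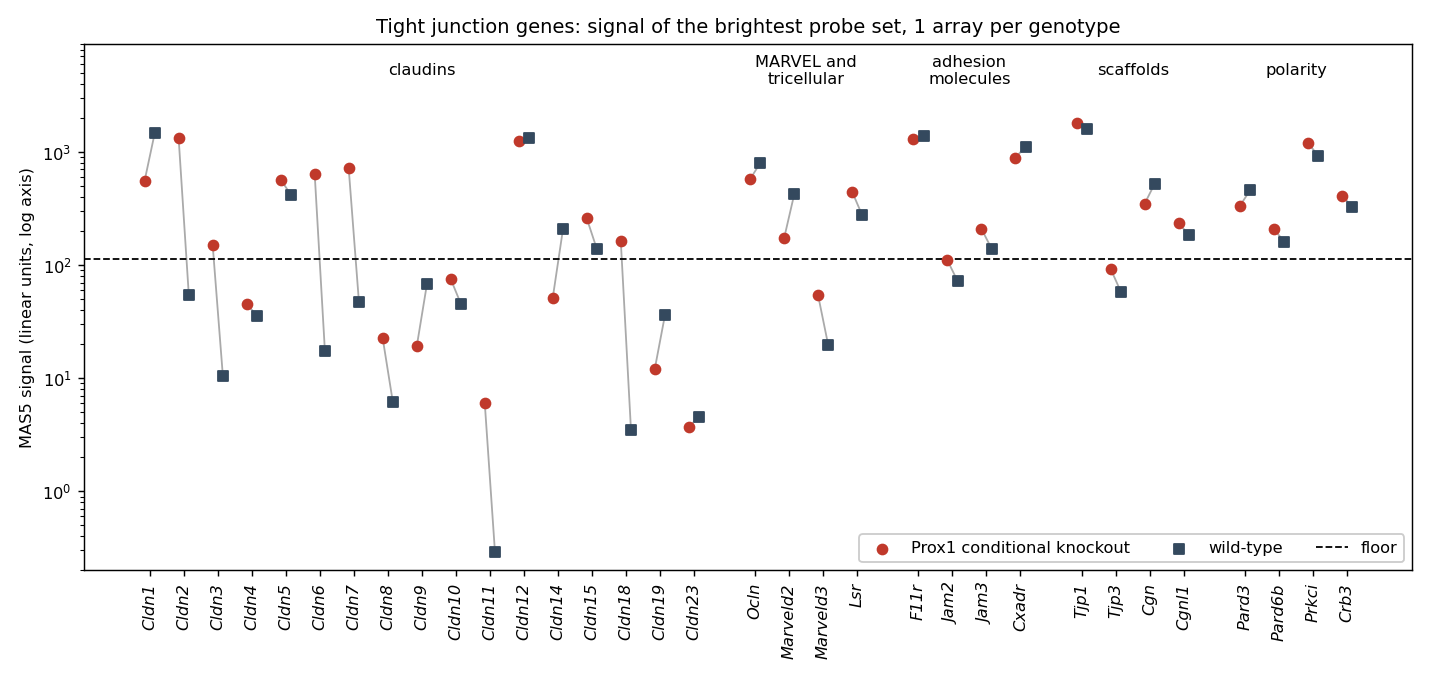
MAS5 signal (log axis) of the brightest probe set of each of the 33 tight junction genes, with the knockout array as red circles on the left of each pair and the wild-type array as dark squares on the right. The dashed line is the floor of 112.6. Cldn2, Cldn3, Cldn6, Cldn7 and Cldn18 lie above it only in the knockout and Cldn14 only in wild type.

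Of the 17 claudins, 10 were measured, of which 3 passed 2-fold upward, beside 3.27% of all measured genes, and 1 downward, beside 2.13%. The 3 upward genes passed through the knockout array alone, and 0 of the 4 claudins measured on both arrays passed upward, beside 2.61%. The claudins had a median log2 difference of 0.49, and of 0.18 over those 4.

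The claudins above 2-fold in the knockout are described by their signals, since their bounds depend on the floor and have no order. Cldn2 encodes a claudin that forms pores for cations and water, and is known in mouse liver for water flow into bile. Its signal was 1323 in the knockout and 53.9 in wild type, at least 11.7-fold higher, with a log2 bound of 3.55. With no floor and a pseudocount of 16, its log2 difference was 4.26. The second probe set of Cldn2 read 548 in the knockout and 71.5 in wild type, at least 4.87-fold higher, so both probe sets were measured in the knockout alone. Cldn2 lies on the X chromosome. Its nearest neighbours with a probe set of their own, Tbc1d8b and Morc4, had log2 differences of 0.01 and -0.37. The part of the sex-linked difference between the arrays in the Cldn2 value was not tested.

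Cldn7 and Cldn6 were likewise above the floor only in the knockout. Cldn7, a claudin of many simple epithelia that binds the adhesion protein Epcam, read 714 in the knockout and 47.6 in wild type. This is at least 6.34-fold higher, a log2 bound of 2.67, and 3.52 with no floor. Cldn6, a claudin of embryonic epithelia that is largely silent in adult tissue, read 638 in the knockout and 17.5 in wild type, at least 5.67-fold higher. Its log2 bound was 2.50, and 4.29 with no floor, so the order of Cldn2, Cldn6 and Cldn7 changes with the floor. Each has a single probe set, so neither has a second reading on these arrays. Slc2a4 and Elp5, on either side of Cldn7, differed by -0.12 and 0.06 on the log2 scale. Beside Cldn6, the cytokine receptor gene Tnfrsf12a read 377 in the knockout and 65.8 in wild type, a log2 bound of 1.74. On the other side of Cldn6 lies Cldn9, a closely related claudin, which was below the floor on both arrays. Its probe sets read 19.1 and 41.8 in the knockout, against 67.7 and 14.6 in wild type.

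Cldn3 and Cldn18 were also above the floor only in the knockout, but by little. Cldn3, a barrier claudin of liver and gut epithelium, read 151 in the knockout and 10.5 in wild type, so its bound is 1.34-fold. A second Cldn3 probe set read 128 in the knockout and 25.0 in wild type. Below the floor, its further probe sets read 64.0 and 62.7 in the knockout, against 10.1 and 55.4 in wild type, too dim to compare. Cldn18, known from stomach and lung, read 162 in the knockout and 3.46 in wild type, a bound of 1.44-fold. Its second probe set stayed under the floor, at 92.9 in the knockout and 27.8 in wild type. When the floor was lowered to the 30th percentile, Cldn3 and Cldn18 had log2 bounds of 1.78 and 1.88. Cldn4, which neighbours Cldn3 on the chromosome, read 45.4 in the knockout and 35.7 in wild type, below the floor on both.

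Cldn1 and Cldn14 read lower in the knockout. Cldn1 is a barrier claudin of hepatocyte and bile duct junctions, whose loss in humans causes a bile duct disease with ichthyosis. It read 557 in the knockout and 1480.0 in wild type and was 2.66-fold lower, with a log2 difference of -1.41. The second measured probe set of Cldn1 read 317 in the knockout and 593 in wild type, 1.87-fold lower. Its other readings, 1.65 and 6.59 in the knockout and 6.35 and 26.0 in wild type, are too dim to compare. Of its chromosomal neighbours, P3h2, encoding a collagen prolyl hydroxylase, read 262 in the knockout and 48.1 in wild type, a log2 bound of 1.22, and Cldn16 was below the floor on both arrays. Cldn14, known from the inner ear, kidney and liver, read 51.5 in the knockout and 208 in wild type. Its bound is 1.84-fold lower because the knockout value lies under the floor, and a floor at the 30th percentile gave a log2 bound of -2.01.

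The remaining measured claudins differed by less than 2-fold. Cldn12, a broadly expressed claudin that lacks the usual tail for binding ZO proteins, read 1254 in the knockout and 1338 in wild type. Its probe sets had log2 differences of -0.09 and -0.15. Cldn15, a cation-pore claudin of the intestine, read 258 in the knockout and 137 in wild type, 1.88-fold higher. Cldn5, the claudin of endothelial junctions, read 571 in the knockout and 419 in wild type, 1.36-fold higher. Claudins that read below the floor on both arrays were Cldn4, Cldn8, Cldn9, Cldn10, Cldn11, Cldn19 and Cldn23, with signals from 3.72 to 75.2 in the knockout and from 0.29 to 67.7 in wild type on the probe set used. At such signals no difference could be read.

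**Figure D2:**
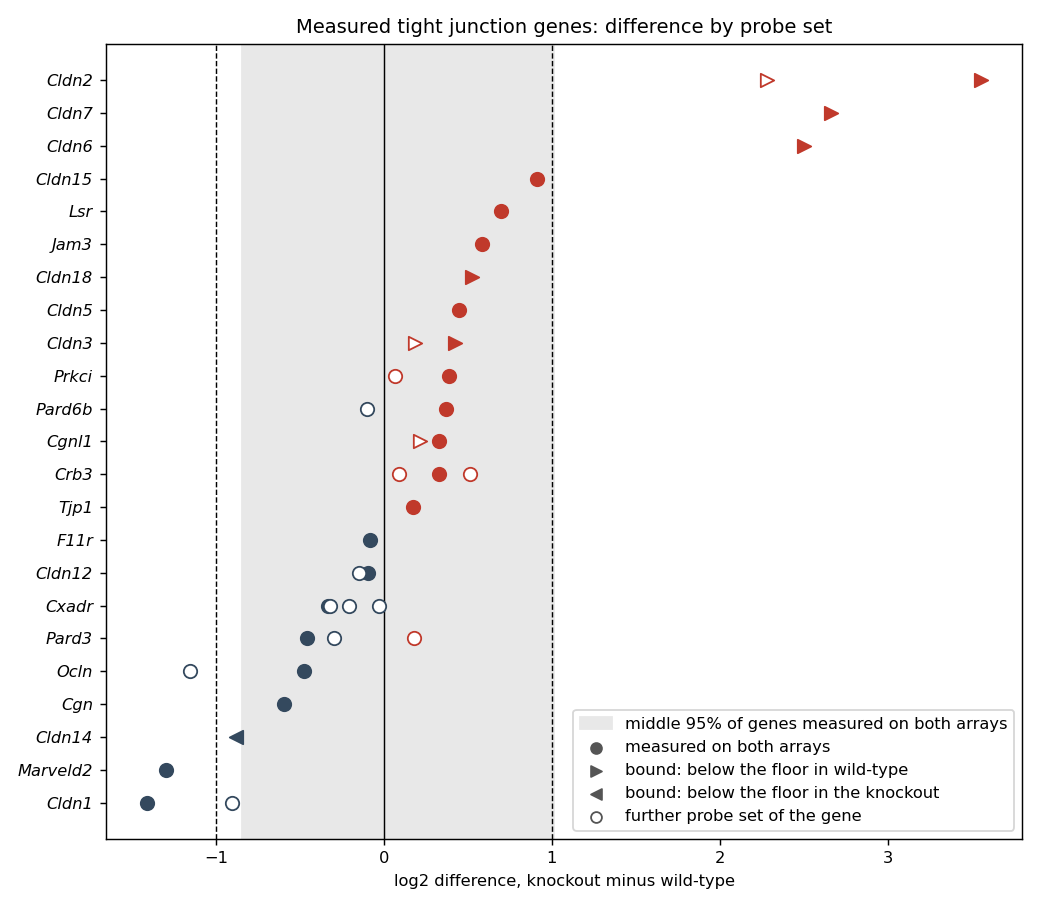
Log2 difference (knockout minus wild-type) of every measured probe set of the 23 measured tight junction genes, ordered by the brightest probe set. Filled symbols stand for the gene, open symbols are its further probe sets, triangles are bounds, dashed lines mark 2-fold, and the grey band, from -0.84 to 1.01, holds the middle 95% of genes measured on both arrays. Cldn2, Cldn7 and Cldn6 lie right of the band, and Cldn1, Marveld2, the bound of Cldn14 and the further probe set of Ocln lie left of it.

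Genes of the occludin family and of tricellular contacts lay in both directions, with a median log2 difference of -0.47 over 3 measured of 4 listed. Marveld2, which encodes tricellulin, the protein of the corners where epithelial cells meet, read 172 in the knockout and 423 in wild type. It was 2.46-fold lower, a log2 difference of -1.30, on a single probe set. Ocln, encoding occludin, read 574 in the knockout and 798 in wild type on its brightest probe set, 1.39-fold lower. Its other probe set read 179.8 in the knockout and 401 in wild type, 2.23-fold lower, so the probe sets of Ocln fall on either side of the 2-fold mark. Ocln and Marveld2 are next to each other on chromosome 13 with 0 protein-coding genes between them. Rad17, on the far side of Marveld2, had a log2 difference of -0.21. Lsr, which encodes angulin-1, the receptor that recruits tricellulin to tricellular contacts, lay in the other direction. It read 446 in the knockout and 275 in wild type, 1.62-fold higher. Marveld3, a relative of occludin, was under the floor, at 54.1 in the knockout and 19.5 in wild type.

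Junction adhesion molecules, immunoglobulin-like proteins beside the claudin strands, differed by less than 2-fold, with a median of -0.08 over 3 measured of 4 listed. F11r, encoding JAM-A of epithelia, read 1313 in the knockout and 1389 in wild type, a log2 difference of -0.08. Cxadr, encoding the coxsackievirus and adenovirus receptor, read 888 in the knockout and 1117 in wild type. Its 4 measured probe sets were all below 0, with log2 differences from -0.33 to -0.03. Jam3, a gene of endothelium and mesenchyme among other cells, read 209.7 in the knockout and 140.0 in wild type, a log2 difference of 0.58. Jam2, known from endothelium, was below the floor on all 5 probe sets, the brightest at 110.4 in the knockout and 72.5 in wild type.

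Scaffold genes also stayed within 2-fold, with a median of 0.17 over 3 measured of 4 listed. Tjp1, encoding ZO-1, read 1787 in the knockout and 1588 in wild type, 1.13-fold higher. Cgn, encoding the epithelial scaffold cingulin, read 348 in the knockout and 526 in wild type, 1.51-fold lower. Its relative Cgnl1, encoding paracingulin, read 233 in the knockout and 186 in wild type, 1.26-fold higher. The pair therefore differed in direction. Tjp3, encoding ZO-3, was below the floor at 92.8 in the knockout and 58.3 in wild type.

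Polarity genes were all measured on both arrays and all 4 within 2-fold, with a median of 0.35. Prkci, the atypical protein kinase C of the Par complex, read 1208 in the knockout and 925 in wild type, 1.31-fold higher. Its second probe set had a log2 difference of 0.07. Crb3, the Crumbs protein of epithelia, read 412 in the knockout and 328 in wild type, and its 3 probe sets lay between 0.09 and 0.51 on the log2 scale. Pard6b, the Par6 partner of that kinase, read 208 in the knockout and 162 in wild type, with a second probe set at -0.10. Pard3, the Par3 scaffold, read 333 in the knockout and 457 in wild type, a log2 difference of -0.46, while another of its probe sets was at 0.18. Pard3 and Pard6b were the 2 of 11 genes with over 1 measured probe set whose probe sets disagreed in direction, and the other 9 read one way.

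**Figure D3:**
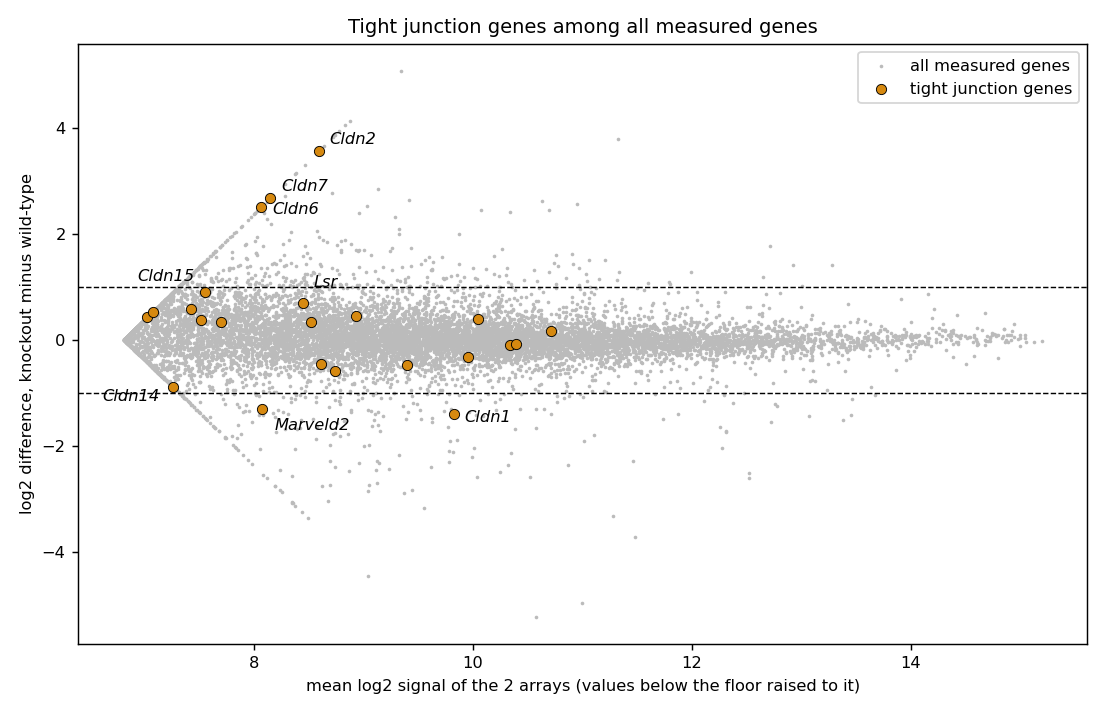
Log2 difference (knockout minus wild-type) against mean log2 signal for all 11433 measured genes (grey) and the 23 measured tight junction genes (orange). Points on the slanted edges are bounds, from genes below the floor on 1 array; Cldn2, Cldn6 and Cldn7 lie on the upper edge, and Cldn1, with a log2 difference of -1.41, lies among brighter genes.

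How far these differences stand from those of other genes depends on signal. Among genes measured on both arrays, the middle 95% of log2 differences ran from -1.01 to 1.12 at mean signals between 250 and 1000, and 6.29% of 4388 genes there were 2-fold apart in either direction. Cldn1 and Marveld2 lay outside that range on their brightest probe sets. So read, the other junction genes measured on both arrays lay inside the range for their signal. Below 250 it ran from -0.79 to 1.10, and between 1000 and 5000 from -0.70 to 0.75. The median log2 difference also varied with signal. It was 0.12 below 250, 0.04 between 250 and 1000 and -0.03 between 1000 and 5000. Of second probe sets at signals between 250 and 1000, that of Ocln, at -1.16, lay outside the range, and that of Cldn1, at -0.90, lay inside. The range describes genes and is not an error between samples.

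Other genes of the junction machinery were mostly alike on the arrays. Of 57 further tight junction and polarity genes, 49 could be read on these arrays and 43 were measured. Among the 43, 2 were at least 2-fold higher in the knockout, beside 3.27% of all measured genes, and 0 were lower, beside 2.13%. The remaining 41 lay between. The median log2 difference of the 43 was 0.17, beside 0.03 over all measured genes. Pard6g, encoding another Par6 protein, read 471 in the knockout and 176 in wild type, 2.68-fold higher. Marveld1, a relative of occludin and tricellulin, read 936 in the knockout and 310.0 in wild type, 3.02-fold higher. The further measured probe sets of Marveld1 lay in the opposite direction, at 204 and 76.1 in the knockout, against 334 and 149 in wild type. Marveld1 no longer passed 2-fold when probe sets ending in _x_at or _s_at were left out. Lin7a, which encodes a partner of the Crumbs complex, read 46.1 in the knockout and 224 in wild type, a bound of 1.99-fold lower. Sympk, encoding symplekin, read 1483 in the knockout and 802 in wild type, 1.85-fold higher, but had a log2 difference of -0.01 on a dimmer probe set. Cldn13, a rodent claudin known from blood-forming tissue, read 7878 in the knockout and 9142 in wild type, a log2 difference of -0.21.

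Regulators of epithelial junction genes gave few readings. Of 19 listed, 18 had a probe set and 9 were measured, with a median of 0.31. Of the 9, 1 was at least 2-fold higher, beside 3.27% of all measured genes, and 0 were lower, beside 2.13%. Grhl2, a Grainyhead factor that activates claudin and cadherin genes in epithelia, read 166 in the knockout and 90.8 in wild type, a log2 bound of 0.56. The further 3 readings of Grhl2 were under the floor in either genotype. Snai2, a repressor also expressed in mesenchyme, read 935 in the knockout and 361 in wild type, 2.59-fold higher. The second Snai2 probe set read 166 in the knockout and 95.7 in wild type, a log2 bound of 0.56. Snai1 was below the floor at 47.2 in the knockout and 53.6 in wild type, and Zeb1 and Zeb2, further repressors of epithelial genes, had log2 differences of 0.31 and 0.34 on their brightest probe sets. Further probe sets lay at -0.17 and, as a bound, -0.08 for Zeb1, and at 0.71, 0.27 and -0.10 for Zeb2. Elf3, an epithelial ETS factor, read 216 in the knockout and 153 in wild type. Hnf4a, the hepatocyte regulator, had a log2 difference of -0.55.

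Among epithelial adhesion genes and keratins, Krt19 and Epcam read higher in the knockout alongside Cldn2, Cldn6 and Cldn7. Krt19, a keratin of ducts, read 982 in the knockout and 70.5 in wild type, at least 8.72-fold higher. Epcam, an adhesion protein of ducts and progenitors, read 273 in the knockout and 70.3 in wild type, at least 2.42-fold higher. A second Epcam probe set was under the floor on both arrays, at 59.5 in the knockout and 89.0 in wild type, too dim to compare. Cdh1, the adherens junction cadherin, differed by 0.21 on the log2 scale, and Spint2, a membrane protease inhibitor, was 2.07-fold higher in the knockout, at 1141 against 552 in wild type. Dsp, encoding the desmosomal protein desmoplakin, was just under the mark, at 1.999-fold, on its brightest probe set. Another Dsp probe set read 1016 in the knockout and 846 in wild type, 1.20-fold higher. Of 9 measured genes in this list, 3 were at least 2-fold higher, beside 3.27% of all measured genes, and 0 lower, beside 2.13%. Only Spint2 of the 3 was measured on both arrays, 1 of 6 such genes.

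Markers of several cell types differed between the arrays alongside the junction genes, and in whole liver fewer cells of a type and less RNA per cell cannot be told apart. Of 7 cholangiocyte markers with a probe set, 4 were measured, all in the knockout only, beside 7.35% of all measured genes. The summed signal over the 7 was 1550.1 in the knockout and 299.7 in wild type. Without Krt19 the sums were 568 in the knockout and 229 in wild type. Besides Krt19 and Epcam, Krt7 read 113.5 in the knockout and 80.1 in wild type, and Sox9 read 127 in the knockout and 48.5 in wild type. Both were little above the floor in the knockout. Further Sox9 probe sets were under the floor on both arrays, at 88.2 and 22.1 in the knockout, against 6.52 and 58.5 in wild type. Cftr, Muc1 and Tff2 were below the floor on both arrays. Hepatocyte markers summed to 131886 in the knockout and 157598 in wild type, with most of either sum from Alb, Afp, Ttr and Apoa1. All 6 were measured on both arrays and 5 read lower, beside 4896 of 10216 genes so measured. Of these 5, Afp and Ttr had log2 differences of only -0.05 each. The 2 at least 2-fold lower were Ahsg and Fgb, beside 1.85% of genes measured on both arrays. All 12 endothelial markers read higher in the knockout, beside 6160 of all 11433 measured genes, and 0 reached 2-fold, beside 3.27%. Tie1 was below the floor in wild type, so its log2 difference of 0.22 is a bound. The 12 markers had a median of 0.37 and summed signals of 6835 in the knockout and 5656 in wild type, beside Cldn5 at 0.45 and Jam3 at 0.58. Mesenchymal and stellate markers had a median of 1.41, with summed signals of 27980.0 in the knockout and 13632 in wild type. All 10 were measured on both arrays, and 6 were at least 2-fold higher, beside 2.61% of all genes so measured. Those 6 were Col1a1, Pdgfrb, Lhx2, Hand2, Cdh11 and Lum. Of 8 mesothelial markers 5 were measured, with Msln, Lrrn4 and Muc16 below the floor on both arrays and sums of 1921 in the knockout and 746 in wild type. Krt19 is in this list too, and without it the sums were 939 in the knockout and 675 in wild type.

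RNA from neighbouring endoderm was looked for in the same way. Of 10 gut and stomach markers, 7 were below the floor on both arrays, among them the defining factors Cdx1, Cdx2, Sox2 and Pdx1, with signals from 2.69 to 11.5 in the knockout and from 2.16 to 23.0 in wild type. Tff3 read 884 in the knockout and 277 in wild type, Vil1 read 259.6 in the knockout and 20.6 in wild type, and Tff1 read lower, at 462 in the knockout and 776 in wild type. The list summed to 1721 in the knockout and 1193 in wild type. Of 6 pancreas markers, 5 were under the floor in either genotype, and the list summed to 764 in the knockout and 635 in wild type. Blood lists had medians of -0.01 for 5 measured erythroid, 0.34 for 6 macrophage, 1.01 for 6 granulocyte and 0.33 for 5 megakaryocyte genes. All of these were measured on both arrays. At least 2-fold higher were 1 of the 6 macrophage genes (Marco) and 3 of the 6 granulocyte genes (Mpo, S100a9 and Camp). The share over all genes measured on both arrays was 2.61%, and 0 of the erythroid and megakaryocyte genes passed. The part of all these cell types in the values of the junction genes was not tested.

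**Figure D4:**
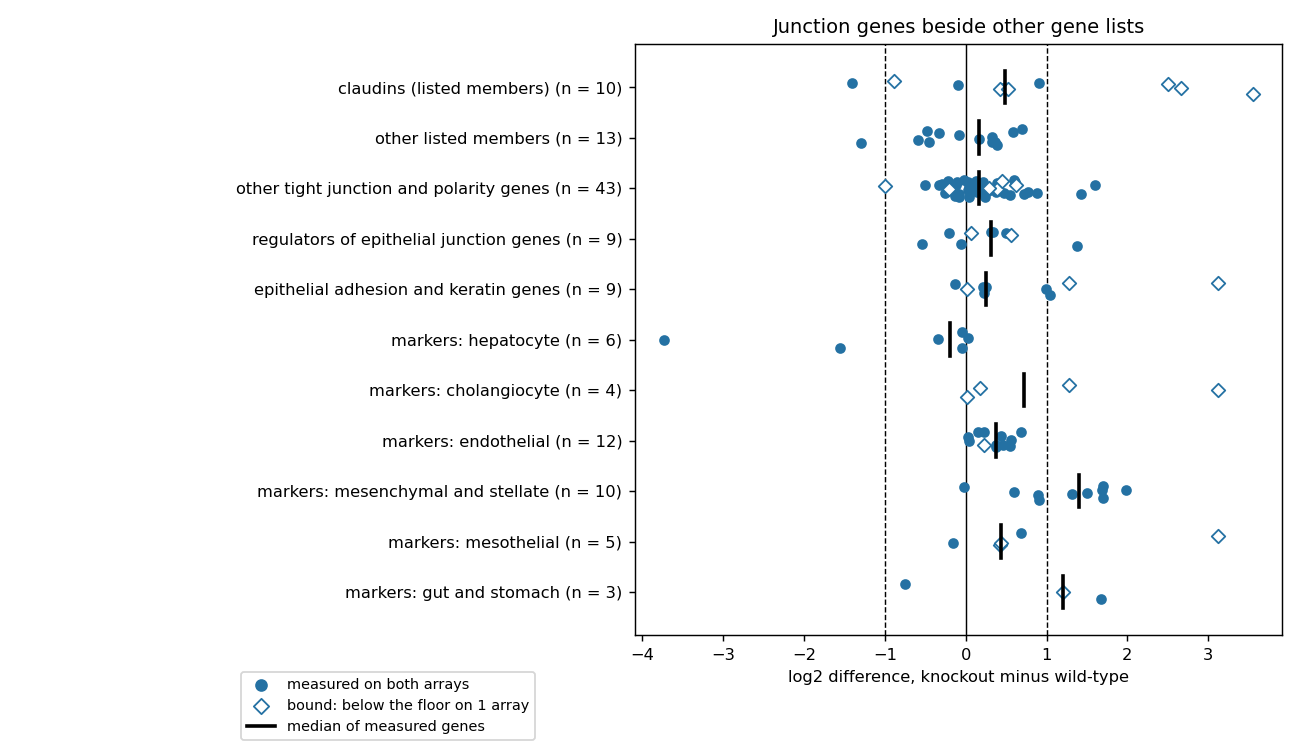
Log2 difference (knockout minus wild-type) of the measured genes of each list, 1 point per gene, with vertical jitter only to separate points. Filled circles were measured on both arrays, open diamonds are bounds, black bars are medians and dashed lines mark 2-fold. The claudins spread from -1.41 to 3.55, while the 43 further tight junction and polarity genes lie around a median of 0.17.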

How the data were processed

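Whole liver RNA from 1 Prox1 conditional knockout and 1 wild-type sample was measured on single-colour Affymetrix arrays of 45101 probe sets, of which 64 controls were left out. The deposited intensity values, 1 for each probe set on each array, were made by the authors with MAS5, per the submitters' processing notes. Its version is not given in the sources, and the values were used unchanged. MAS5 subtracts mismatch probes, so dim probe sets scatter widely, and detection calls were not used here.

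Genes were named by GEO's annotation of the platform. Only the 34945 probe sets with 1 gene were used, of which 34741 had their gene identifier in a RefSeq table (GRCm38.p6), and 932 with several genes were left out. Values below the floor, the higher of the 50th percentiles of the arrays, were raised to it, and log2 differences are knockout minus wild type. Each gene was read on the probe set whose mean log2 signal, after the floor, was highest. Named were every junction gene, Prox1, genes of the other lists at least 2-fold apart or with the largest differences, nearest neighbours of claudins and Marveld2, and a few genes named whatever their values. Cldn13, Cldn16, Xist and Eif2s3y were named after their values were seen. The members and lists were chosen with earlier results of these data known. Precision is limited by the number of arrays: with 1 per genotype there is no error between samples and no p-value.

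Tables were handled with pandas 2.3.3 and numpy 2.4.6 in Python 3.11.15, lowess came from statsmodels 0.14.6, summary statistics from scipy 1.17.1 and plots from matplotlib 3.10.9. The counting was tested on simulated arrays, with changes set only in genes whose mean signal lay well above the floor. Genes with a mean signal as low as that of Cldn2, Cldn6, Cldn7 or Marveld2 were not among those changed. Alternatives were other floors, quantile and lowess rescaling, other probe set rules, other size rules, and no floor with a pseudocount of 16.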

Additional observations from a re-analysis of the deposited data

How the results depend on the processing

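Over 9 alternatives, Cldn2, Cldn6 and Cldn7 were at least 2-fold higher in the knockout in each, and all 23 measured junction genes kept their direction wherever they were measured. Of 159 alternative values of single junction genes, 138 moved by less than the robust SD of the log2 differences of all genes measured on both arrays (0.29), 21 by more and 0 changed sign. The other size rules leave these values as they are and were not counted among the 159. Another floor or the pseudocount cannot reverse the sign of a given probe set. There a sign could change only if another probe set came to stand for the gene. The bounds move with the floor by construction: Cldn2 ranged from 2.80 to 4.62, Cldn7 from 1.91 to 3.91 and Cldn6 from 1.75 to 4.29. Cldn1 ranged from -1.41 to -1.16 and Marveld2 from -1.38 to -1.15. The median of the junction genes, 0.33, ranged from 0.14 to 0.34. The count of higher junction genes was 5 rather than 3 at a 30th percentile floor or no floor (Cldn3 and Cldn18 added) and at 1.5-fold (Cldn15 and Lsr added). The count of lower ones was 4 rather than 2 at 1.5-fold and with no floor, and 0 at 3-fold, where Cldn1 and Marveld2 no longer reached the mark. Cldn14 joined Cldn1 and Marveld2 in 5 of the 9: both lower counts of 4, a 30th percentile floor, and quantile and lowess rescaling. Among further tight junction and polarity genes, 2 were higher, against 1 with the median over probe sets (Pard6g, without Marveld1), 1 at 3-fold (Marveld1) and 9 at 1.5-fold. Without probe sets ending in _x_at or _s_at the count was 2, with Arhgef2 in place of Marveld1. In that list 0 were lower, against 1 at a 30th percentile floor, under quantile and lowess rescaling and at 1.5-fold (Lin7a), and 2 with no floor. Among regulators 1 was higher (Snai2), against 0 with the median over probe sets, without probe sets ending in _x_at or _s_at, and at 3-fold, and 4 with no floor. A further 1 regulator was lower (Ehf) at a 30th percentile floor or no floor, where dim values are not filtered. The counts over all genes, 374 higher and 244 lower, were 813 and 427 at a 30th percentile floor, 1444 and 824 with no floor, 1133 and 598 at 1.5-fold and 100 and 102 at 3-fold. A 60th percentile floor gave 251 and 198. No paired analysis was possible because each genotype has 1 array. Signal over background limits 10 of the 33 genes, which could not be compared, and every other value rests on 1 array per genotype.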
